A study of Homo sapiens with 6 samples.

Results

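LIN28A, LIN28B, IGF2BP1, IGF2BP2, IGF2BP3, HMGA2, SALL4, SOX2, TRIM71 and DPPA4 are oncofetal genes, which are active in the embryo, largely silent in most adult tissues and expressed again in many tumors. These 10 genes were taken by symbol from the deposited table of 15897 genes. The table listed 8 of them, and LIN28A and DPPA4 were not listed. Expression was measured by RNA-seq of total RNA in 6 libraries labelled H1650, an established human lung adenocarcinoma cell line. The 3 control libraries are labelled wild type, and the 3 shSETD2 libraries are labelled as H1650 cells with a short hairpin RNA against SETD2. SETD2 is the enzyme that places trimethylation on lysine 36 of histone H3. The methods of the study describe silenced H1650 cells made with several hairpins, but the labels do not say which hairpin each library had, whether the control cells carry one, or whether the libraries come from separate cultures. The p-values below therefore measure the spread between these libraries, which may be technical.

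LIN28A and LIN28B are RNA-binding proteins that hold back the maturation of the let-7 microRNAs. They bind let-7 precursors, and with LIN28A terminal uridyltransferases then tag the bound precursor for decay. Mature let-7 in turn represses mRNAs with let-7 sites in their 3′ untranslated region (3′ UTR), and LIN28B, the IGF2BP genes, HMGA2 and TRIM71 are well-known let-7 targets. The IGF2BP proteins bind and stabilize mRNAs, HMGA2 is an architectural chromatin protein that binds AT-rich DNA, and TRIM71 is an RNA-binding ubiquitin ligase of early development. SOX2 and SALL4 are transcription factors of pluripotent cells, and DPPA4 is a chromatin protein of the early embryo.

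The let-7 microRNAs share their seed, bases 2 to 8 of the mature strand, which pairs with the target. The seed is shown in capitals in 4 of the 9 mature sequences compared (RefSeq), and all 9 carried the same 7 bases, GAGGUAG.
hsa-let-7a-5p: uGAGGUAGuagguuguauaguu
hsa-let-7b-5p: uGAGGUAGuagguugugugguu
hsa-let-7i-5p: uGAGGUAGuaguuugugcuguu
hsa-miR-98-5p: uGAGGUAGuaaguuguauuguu

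A 3′ UTR pairs with this seed where it reads CTACCTC on the strand of the gene. The motif was counted in the 3′ UTR of 1 canonical transcript per gene (GRCh37, the build of the files). TRIM71 held 6 matches in 6013 bases of 3′ UTR. LIN28B held 4 matches in 4549 bases, IGF2BP1 held 4 in 6701 bases, and HMGA2 held 4 in 2999 bases. IGF2BP2, IGF2BP3, SALL4 and LIN28A held 1 match each, and SOX2 and DPPA4 held 0. Among tested genes with a 3′ UTR of similar length (the shorter at least 0.8 of the longer), as many matches or more were found in 0.239% for LIN28B, 0.667% for IGF2BP1, 0.111% for HMGA2 and 0.130% for TRIM71. For IGF2BP2, IGF2BP3 and SALL4 these shares were 13.1%, 12.5% and 13.2%, so single matches were common at their lengths. The match nearest the stop codon of each listed gene is shown with its flanks because it is the stretch that let-7 would pair with, and capitals mark the 7 bases that face the seed.
LIN28B, chr6:105526687-105526709, plus strand: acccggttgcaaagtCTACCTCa
TRIM71, chr3:32933460-32933482, plus strand: aacattgcttaagtcCTACCTCa
IGF2BP1, chr17:47128423-47128445, plus strand: tgtgtgcgaagtaaaCTACCTCa
IGF2BP2, chr3:185362008-185362030, minus strand: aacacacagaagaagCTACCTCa
IGF2BP3, chr7:23351414-23351436, minus strand: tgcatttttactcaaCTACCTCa
HMGA2, chr12:66357078-66357100, plus strand: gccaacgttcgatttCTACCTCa
SALL4, chr20:50399462-50399484, minus strand: aaagctttaatttatCTACCTCa
In HMGA2 and LIN28B this first match began 21 and 44 bases after the stop codon, whereas in IGF2BP1 it began 1632 bases after it. A match is a description of sequence, and binding was not measured.

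The 6 libraries were set against their labels before the genes were compared. SETD2 itself had an FPKM (fragments scaled to gene length and library size) of 17.99, 10.2 and 17.6 in control libraries 1 to 3, and of 8.97, 8.09 and 12.2 in shSETD2 libraries 1 to 3. SETD2 thus overlapped between the groups, with less in control library 2 than in shSETD2 library 3, and its change did not pass the threshold (log2 fold change -0.58, SE 0.24, limma adjusted p = 0.0641, and -0.25 with a limma adjusted p = 0.377 under median ratio scaling). Of 13 lung epithelium markers, 11 were not listed, NAPSA and the surfactant genes among them, and NKX2-1 had 1.44 to 1.80 FPKM in the control libraries and was listed at 0 in all shSETD2 libraries. The summed FPKM of the 2 lung markers listed was 1.89 to 2.45 in control and 1.18 to 1.27 in shSETD2 libraries. For the 9 of 12 epithelial markers listed, summed FPKM was 16.5 to 17.7 in control and 402.1 to 454.5 in shSETD2 libraries, mostly from KRT7, KRT8 and KRT18, while CDH1 (1.27 and 0.012 FPKM), ESRP2 (1.93 and 0.022 FPKM) and EPCAM (0.710 and 0.220 FPKM) had lower means in shSETD2. For 11 of 13 embryonic kidney markers the sums were 22.8 to 26.6 and 61.0 to 72.3, with EYA1, SIX2 and EMX2 at 0 in shSETD2. For 5 of 11 neuronal markers they were 67.6 to 72.2 and 18.1 to 19.6, with INA, NEFL and NEFM at 0 in shSETD2 and TUBB3 higher there (1.32 and 16.1 FPKM). For 11 of 12 mesenchymal markers they were 124.9 to 139.2 and 170.0 to 180.3, with TWIST1 and TWIST2 at 0 in shSETD2. The higher mesenchymal sum came mostly from VIM (means of 66.5 and 132.4 FPKM), and FN1 and CDH2 were also higher in shSETD2. All other listed mesenchymal markers had lower means there. Mesenchymal markers with a mean of 1 FPKM or more numbered 10 in control and 4 in shSETD2. Across genes, which are not independent, Pearson's r of log2(FPKM + 1) was 0.982 to 0.990 within a group and 0.701 to 0.707 between groups. With these values, a difference between the cells of the groups other than the hairpin, up to a different cell line, cannot be told apart from an effect of the hairpin, and this holds for every comparison below. A lower level per cell also cannot be told apart from fewer cells of a type.

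Among the oncofetal genes, LIN28B, IGF2BP1, SOX2 and TRIM71 fell in shSETD2 and HMGA2 and IGF2BP2 rose. IGF2BP3 did not pass the threshold, and SALL4 was too low to be tested. The fit covered the 14068 genes with a mean of at least 0.5 FPKM over the 6 libraries, on log2(FPKM + 1), with limma and Benjamini-Hochberg adjustment over all of them. Of the 7 members tested, 2 rose and 4 fell at an adjusted p under 0.05. LIN28B, SOX2 and TRIM71 passed the filter on low values only through their control libraries, so that this count of members that fell is no support for a common direction. Of all genes tested, 78.6% passed the threshold, 26.8% higher and 51.8% lower in shSETD2, so a call alone set a member apart from few other genes. The groups did not overlap for 6 of the 7 tested members, 2 with shSETD2 above control and 4 with control above shSETD2. Among all tested genes 80.9% did not overlap, 27.9% with shSETD2 above and 53.0% with control above. Over all tested genes the median change was -0.29 on the log2 scale and moved to -0.01 when libraries were scaled by median ratios and to -0.11 after quantile normalization, and the share of calls in the higher direction moved from 34.1% to 49.6% and 43.2%.

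**Figure D1:**
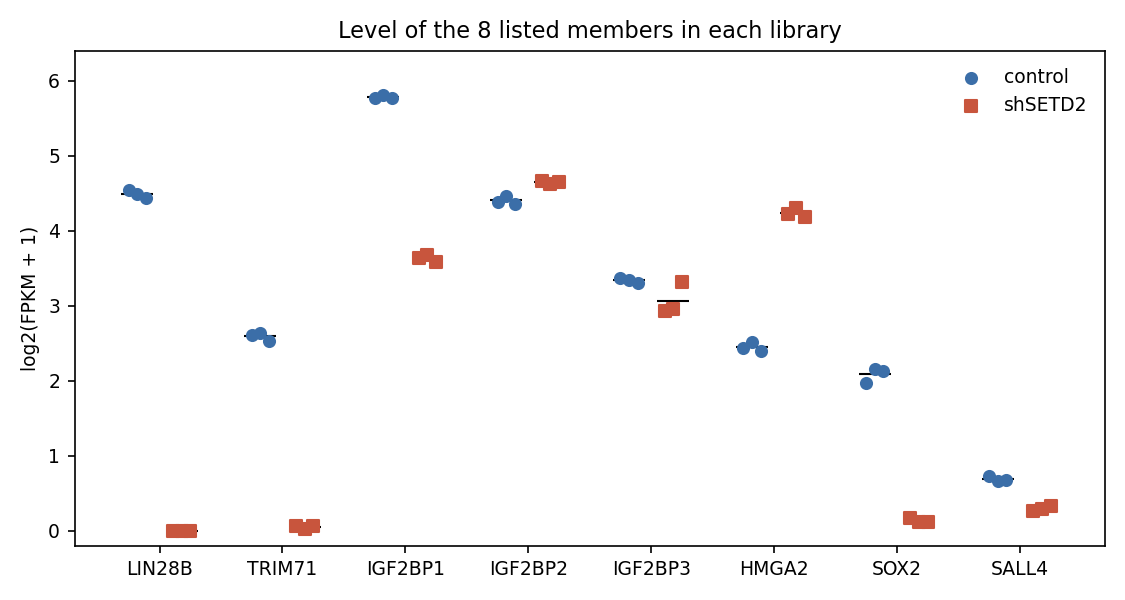
Level of the 8 listed genes in each library as log2(FPKM + 1), with circles for the 3 control libraries, squares for the 3 shSETD2 libraries and a line at the mean of each group. LIN28B is at 0 in all shSETD2 libraries, TRIM71 and SOX2 are close to 0 there, HMGA2 is higher there, and the groups overlap for IGF2BP3.

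Among the members, LIN28B showed the plainest difference, with a high level in control libraries and a listed value of 0 in every shSETD2 library. The gene (ENSG00000187772.7_3, chr6:105384491-105531207, plus strand) had 22.3, 21.5 and 20.7 FPKM in control libraries 1 to 3, a mean of 21.5 ± 0.796 (SD, n = 3). It was listed at 0 in shSETD2 libraries 1, 2 and 3, so no fold change is given (limma adjusted p = 1.52e-08). The control mean was at the 91.2 percentile of all listed genes. None of 78 ribosomal protein genes was listed at 0 in any library, but the number of reads behind a 0 is unknown. In all, 726 listed genes were at 0 in every shSETD2 library but not in every control library. Of these, 6 had at least 20 FPKM in every control library, namely BEX4, NEFM, NRN1, HOXD13, UCHL1 and LIN28B. That cut lies just below the lowest control value of LIN28B, so the small number depends on where it was set. By adjusted p LIN28B ranked 67 among all tested genes. LIN28A, its paralog, was not listed in either group.

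TRIM71, which like LIN28B is a let-7 target and keeps early cells undifferentiated, was also close to absent in shSETD2. TRIM71 (ENSG00000206557.5_2, chr3:32859510-32939318, plus strand) had 5.12, 5.22 and 4.78 FPKM in control libraries and 0.0452, 0.0121 and 0.0408 FPKM in shSETD2 libraries. The lowest control library lay far above the highest shSETD2 library, and the means of 5.04 ± 0.231 and 0.0327 ± 0.0180 (SD, n = 3 each) differed 154.1-fold. On the log2(FPKM + 1) scale, which understates changes of low genes, the change was -2.55 (SE 0.057, limma adjusted p = 1.33e-07), and with a pseudocount of 0.01 it was -6.99. LIN28B and TRIM71 were 2 of 626 genes with at least 1 FPKM in every control library and less than 0.1 FPKM in every shSETD2 library, while 277 genes had the reverse pattern.

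The 3 IGF2BP genes did not move together. IGF2BP1 fell 4.77-fold, IGF2BP2 rose by a small amount, and IGF2BP3 did not pass the threshold. IGF2BP1 (ENSG00000159217.9_3, chr17:47074774-47133012, plus strand) had 53.7, 55.3 and 53.6 FPKM in control libraries and 11.4, 11.7 and 10.95 FPKM in shSETD2 libraries, groups that were far apart beside their spread. Its means were 54.2 ± 0.931 and 11.4 ± 0.389 FPKM (SD, n = 3 each), a log2 fold change of -2.16 (SE 0.040, limma adjusted p = 7.15e-08). Across the scalings, pseudocounts and left-out libraries its log2 fold change stayed between -2.28 and -1.82. IGF2BP1 remained well expressed in shSETD2, at the 79.4 percentile of listed genes.

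IGF2BP2 (ENSG00000073792.15_2, chr3:185361527-185542844, minus strand) had 19.95, 21.2 and 19.5 FPKM in control libraries and 24.3, 23.7 and 24.1 FPKM in shSETD2 libraries. The groups did not overlap, and the means of 20.2 ± 0.840 and 24.1 ± 0.301 FPKM (SD, n = 3 each) differed 1.19-fold (log2 fold change 0.24, SE 0.043, limma adjusted p = 2.08e-03). The call was lost after quantile normalization (log2 fold change 0.09, limma adjusted p = 0.0818) and the change was larger after median ratio scaling (0.58), so the size of this rise depends on how the libraries are scaled.

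IGF2BP3 (ENSG00000136231.13_2, chr7:23349828-23510086, minus strand) had 9.33, 9.18 and 8.91 FPKM in control libraries and 6.60, 6.73 and 8.93 FPKM in shSETD2 libraries. Library 3 of shSETD2 lay within the control range and libraries 1 and 2 below it, and the log2 fold change of -0.28 (SE 0.11) had a limma adjusted p of 0.0515. Without shSETD2 library 3 the change was -0.40 and passed (limma adjusted p = 1.09e-03), whereas with median ratio scaling it was 0.04 (limma adjusted p = 0.778). The locus overlaps MALSU1 on the opposite strand, and whether the authors' quantification used strand is not given in the sources used here.

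Because FPKM is set per length, the levels of the 3 IGF2BP genes can be added. Their sum was 82.97, 85.6 and 82.0 FPKM in control libraries and 42.3, 42.2 and 44.03 FPKM in shSETD2 libraries. IGF2BP1 made up 64.9% ± 0.412 of the sum in control and 26.5% ± 1.51 in shSETD2 (SD, n = 3 each), while IGF2BP2 made up 24.2% ± 0.468 and 56.2% ± 1.30. IGF2BP3 contributed 10.9% ± 0.267 and 17.3% ± 2.61. The leading gene of the family was thus IGF2BP1 in every control library and IGF2BP2 in every shSETD2 library, and the ratio of IGF2BP1 to IGF2BP2, which no factor applied to a whole library can change, was 2.68 ± 0.0663 and 0.472 ± 0.0205. The groups did not overlap for the sum, for any of the 3 shares or for the ratio. An exact two-sided permutation test gave p = 0.1 for each, which is the smallest value that 3 against 3 libraries allow.

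**Figure D2:**
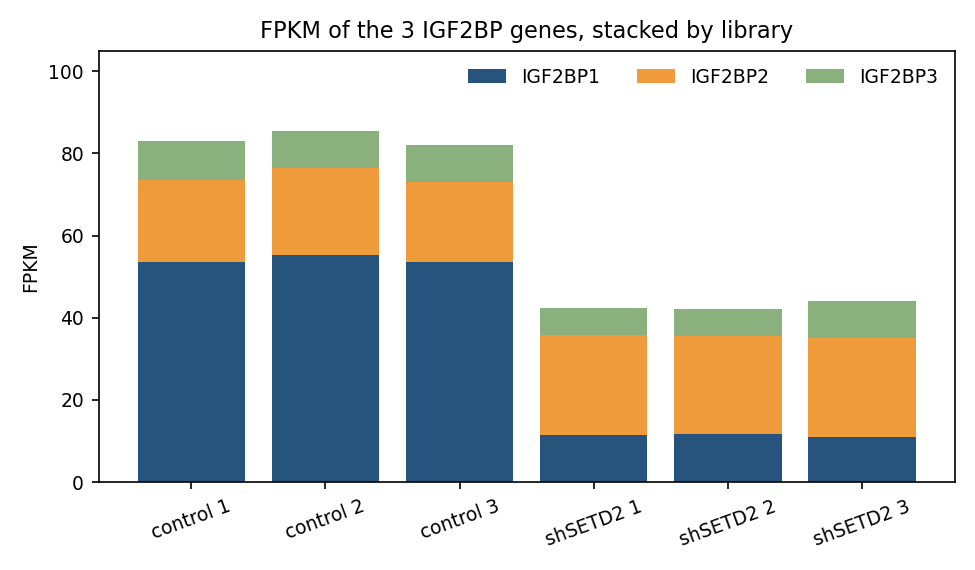
FPKM of IGF2BP1, IGF2BP2 and IGF2BP3 stacked for each of the 6 libraries, so that bar height is the sum of the family. The sum is 82.0 to 85.6 in control and 42.2 to 44.03 in shSETD2 libraries, and IGF2BP1 is the largest portion in control and IGF2BP2 in shSETD2.

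HMGA2 moved the other way from LIN28B, IGF2BP1 and TRIM71, the other members with several seed matches. HMGA2 (ENSG00000149948.13_3, chr12:66217911-66360075, plus strand) had 4.44, 4.73 and 4.26 FPKM in control libraries and 17.7, 18.8 and 17.2 FPKM in shSETD2 libraries, all above every control library. The means were 4.48 ± 0.237 and 17.9 ± 0.843 FPKM (SD, n = 3 each), a 3.996-fold rise and a log2 fold change of 1.79 (SE 0.057, limma adjusted p = 5.82e-07). The change lay between 1.75 and 2.10 under every alternative run. A sense intronic transcript inside the gene, AC107308.1 on the same strand, had 0.0952, 1.20 and 0.861 FPKM in control and 16.9, 27.2 and 17.8 FPKM in shSETD2 libraries, and how reads were divided between the overlapping genes is not known. The related gene HMGA1 rose as well, from 58.9 ± 13.6 to 265.8 ± 15.02 FPKM (SD, n = 3 each, log2 fold change 2.18, SE 0.17, limma adjusted p = 3.41e-05). The ratio of HMGA1 to HMGA2 FPKM was 13.2 ± 2.96 in control and 14.9 ± 1.45 in shSETD2, with overlapping libraries (exact permutation p = 0.5, two-sided).

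SOX2 fell to a level near 0, and SALL4 was low in both groups. SOX2 (ENSG00000181449.3_4, chr3:181429712-181432224, plus strand) had 2.92, 3.47 and 3.39 FPKM in control libraries and 0.119, 0.0841 and 0.0849 FPKM in shSETD2 libraries. Its means of 3.26 ± 0.297 and 0.0961 ± 0.0200 FPKM (SD, n = 3 each) gave a log2 fold change of -1.96 (SE 0.069, limma adjusted p = 9.31e-07), which was -4.96 with a pseudocount of 0.01 and -1.56 after quantile normalization. SALL4 (ENSG00000101115.12_2, chr20:50398870-50419059, minus strand) had 0.662, 0.584 and 0.597 FPKM in control libraries and 0.202, 0.218 and 0.259 FPKM in shSETD2 libraries, which did not overlap. Its mean over the 6 libraries, 0.420 FPKM, was under the filter, and a fit with no filter gave -0.40 (SE 0.035, limma adjusted p = 1.39e-04).

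**Figure D3:**
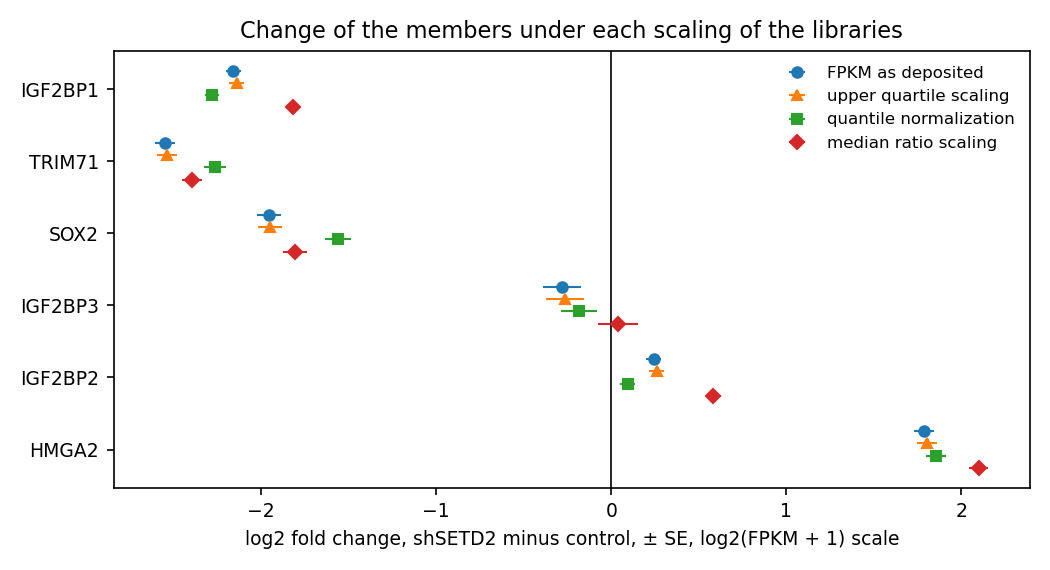
Log2 fold change (shSETD2 minus control, on the log2(FPKM + 1) scale) of the 6 tested genes that are above 0 in both groups, with FPKM as deposited and after 3 other scalings, and bars of ± 1 SE. IGF2BP1, TRIM71, SOX2 and HMGA2 keep their sign under all 4, IGF2BP2 ranges from 0.09 to 0.58, and IGF2BP3 crosses 0 with median ratio scaling.

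The genes that make and turn over let-7 moved in both directions, with a share that fell close to that of all genes tested (51.8%). Of 17 genes of let-7 processing, all listed and tested, 3 rose, 9 fell and 5 did not pass, with a median log2 fold change of -0.45 beside -0.29 for all genes. Quantile normalization and median ratio scaling each gave 5 that rose and 9 that fell. DICER1, which cuts the precursor to the mature length, fell from 13.4 ± 1.53 to 3.45 ± 0.172 FPKM (SD, n = 3 each, log2 fold change -1.69, limma adjusted p = 4.23e-06), and DROSHA, which makes the first cut, rose from 13.5 ± 0.532 to 23.7 ± 0.252 FPKM (0.77, limma adjusted p = 7.12e-06). MSI1, an RNA-binding protein of neural progenitors, had a mean of 15.3 ± 0.694 FPKM in control and was listed at 0 in all shSETD2 libraries. It passed the filter on low values only through the control libraries, so it could only fall. ZC3H12A, a ribonuclease that can cut microRNA precursors, had the largest rise of the list, from 1.71 ± 0.293 to 55.0 ± 0.575 FPKM (4.37, SE 0.082, limma adjusted p = 7.15e-08). The enzymes that act with LIN28A on the precursor differed less. The uridyltransferase ZCCHC11 (TUT4) fell from 7.30 ± 0.312 to 4.75 ± 0.441 FPKM (-0.53, limma adjusted p = 4.85e-04). ZCCHC6 (TUT7) had means of 7.41 and 6.55 FPKM (limma adjusted p = 0.0722), and the exonuclease DIS3L2 had 2.78 and 2.62 FPKM (limma adjusted p = 0.374). ZCCHC6 passed without control library 1 (-0.21, limma adjusted p = 0.0212), and DIS3L2 passed in the higher direction with quantile normalization (0.24) and median ratio scaling (0.20).

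Mature let-7 was not measured, and the genes that contain the let-7 hairpins can be read only as transcripts. Of 12 annotated let-7 family loci, 11 lay inside a listed gene on the same strand. MIRLET7BHG, which holds let-7a-3 and let-7b (chr22:46509566-46509648), had 0.187, 0.141 and 0.169 FPKM in control and 1.67, 1.55 and 1.91 FPKM in shSETD2 libraries (log2 fold change 1.21, SE 0.068, limma adjusted p = 7.17e-06). MIR100HG, host of let-7a-2, stood at a listed 0 in the 3 control libraries and had 0.932, 1.85 and 1.34 FPKM in shSETD2 libraries (limma adjusted p = 2.13e-04). MIRLET7BHG and MIR100HG passed the filter on low values only through the shSETD2 libraries and so could only rise. AC048341.2, host of let-7i, fell from 2.49, 2.41 and 1.97 to 1.90, 1.71 and 1.49 FPKM (-0.28, limma adjusted p = 0.0273). This change was close to the median of all tested genes, -0.29, which depended on the scaling. MIR99AHG, host of let-7c, changed by -0.29 (limma adjusted p = 0.0414), a call that was lost without any 1 of the shSETD2 libraries (limma adjusted p = 0.0757 to 0.119), and its sign turned after quantile normalization (0.18). With FPKM as deposited, MIR99AHG passed the filter on low values only through the control libraries and so could only fall. The hosts of let-7a-1, let-7d and let-7f-1 (AL158152.2), of let-7f-2 and miR-98 (HUWE1) and of let-7g (WDR82) had limma adjusted p-values of 0.457, 0.0824 and 0.626, and the sign of HUWE1 changed with the scaling.

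Other let-7 targets moved in both directions. Of 23 genes, 22 were listed and 21 tested, of which 7 rose, 10 fell and 4 did not pass, with a median log2 fold change of -0.10. These shares were near those of all tested genes, of which 26.8% rose and 51.8% fell, with a median of -0.29. Median ratio scaling gave 10 that rose and 8 that fell. The cyclins of G1 phase split, since CCND1 rose from 6.58 ± 0.833 to 178.2 ± 0.647 FPKM (SD, n = 3 each, 4.57, SE 0.079, limma adjusted p = 5.53e-08) and CCND2 fell from 45.6 ± 0.519 to 8.09 ± 0.160 FPKM (-2.36, SE 0.037, limma adjusted p = 4.17e-08). IGDCC3, a surface protein of the immunoglobulin family, had 3.29, 3.88 and 4.29 FPKM in control libraries and was listed at 0 in all shSETD2 libraries. It passed the filter on low values only through the control libraries, so it could only fall. In insulin signaling, the receptors IGF1R (14.8 to 4.54 FPKM) and INSR (8.66 to 2.89 FPKM) fell and the adaptor IRS2 rose (3.10 to 15.96 FPKM, limma adjusted p = 1.56e-07). HRAS rose from 7.70 to 19.7 FPKM, whereas the cell cycle phosphatase CDC25A (42.9 to 8.62 FPKM) and the repressor HIC2 (13.8 to 2.33 FPKM) fell. MYCN was not listed. MYC had 2.53, 2.00 and 2.66 FPKM in control and 2.97, 11.3 and 14.9 FPKM in shSETD2 libraries, with shSETD2 library 1 close to the control libraries. Its call (1.44, SE 0.50, limma adjusted p = 0.0348) was lost without any 1 of the 3 control libraries and without shSETD2 library 2 or 3 (limma adjusted p = 0.0717 to 0.109).

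**Figure D4:**
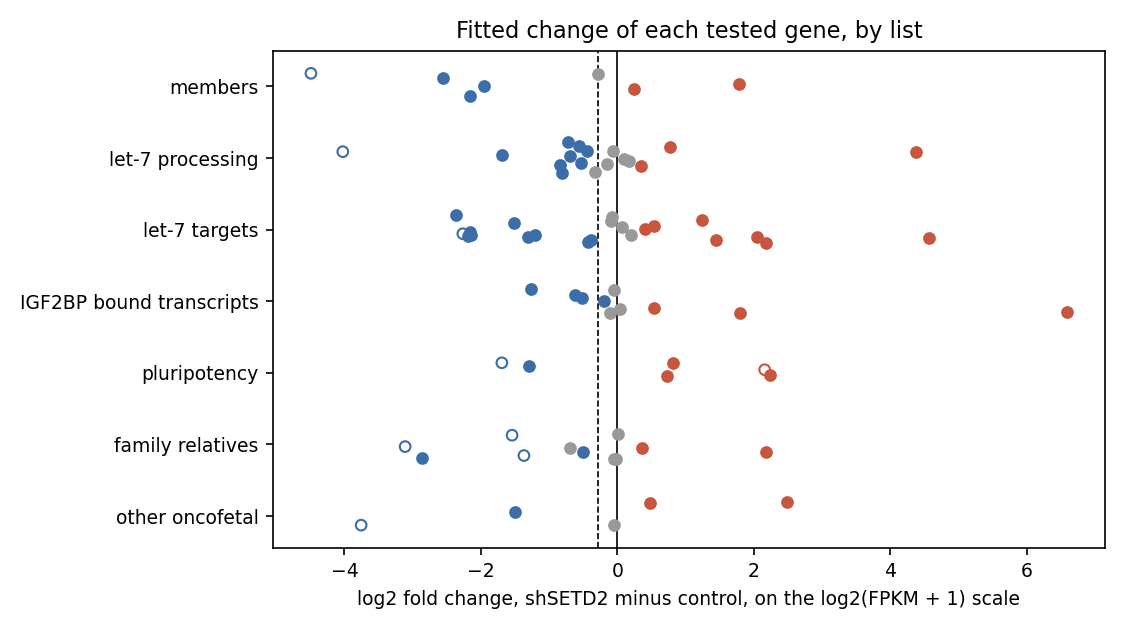
Log2 fold change (shSETD2 minus control, on the log2(FPKM + 1) scale) of each tested gene, 1 point per gene and 1 row per list, with blue for genes that fell, red for genes that rose, grey for genes that did not pass, and open circles for genes at 0 in all libraries of a group, whose position depends on the pseudocount. The dashed line marks the median of all genes, -0.29, and most lists have genes far to both sides of it.

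mRNAs that IGF2BP proteins are known to bind also split. Of 12 genes, all listed and 10 tested, 3 rose, 4 fell and 3 did not pass, with a median log2 fold change of -0.08, and quantile normalization and median ratio scaling each gave 5 that rose. Among all tested genes 26.8% rose and 51.8% fell. CD44 passed the filter on low values only through the shSETD2 libraries and GLI1 only through the control libraries, so their directions were fixed. CD44, a receptor for hyaluronan, went from 0.0974 ± 0.0192 to 104.5 ± 2.26 FPKM (SD, n = 3 each, 6.59, SE 0.043, limma adjusted p = 2.53e-09). ACTB rose from 208.4 ± 6.25 to 727.3 ± 26.2 FPKM (1.80, SE 0.038, limma adjusted p = 1.09e-07), and BTRC, a subunit that guides β-catenin to degradation, fell from 10.9 ± 0.469 to 3.94 ± 0.0503 FPKM (-1.27, SE 0.050, limma adjusted p = 1.39e-06). IGF2, for which the family is named, had means of 2.01 ± 0.583 and 1.86 ± 0.169 FPKM with overlapping libraries (limma adjusted p = 0.754), and passed without control library 1 (-0.23, limma adjusted p = 0.0384). H19 was under the filter, with means of 0.364 and 0.371 FPKM.

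Few pluripotency genes were listed beside SOX2 and SALL4. Of 21 genes, 7 were listed and NANOG was not. Of the 6 tested, 4 rose and 2 fell (median log2 fold change 0.77), and this count was the same under quantile normalization and median ratio scaling. Among all tested genes 26.8% rose and 51.8% fell. POU5F1 passed the filter on low values only through the shSETD2 libraries and UTF1 only through the control libraries, so their directions were fixed. POU5F1, the partner of SOX2 in pluripotent cells, stood at a listed 0 in the 3 control libraries and had a mean of 3.48 ± 0.419 FPKM (SD, n = 3) in shSETD2 (limma adjusted p = 1.02e-06), but it shares sequence with several pseudogenes and its level is uncertain. KLF4 rose from 2.01 ± 0.394 to 13.2 ± 0.793 FPKM (2.24, SE 0.10, limma adjusted p = 2.74e-06). UTF1, a chromatin protein of embryonic stem cells, had 2.23 ± 0.136 FPKM in control and was listed at 0 in shSETD2, and the DNA methyltransferase DNMT3B fell from 9.25 ± 0.997 to 3.17 ± 0.410 FPKM (-1.30, limma adjusted p = 3.83e-05).

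The genes around the members were read to see whether each change stood alone along its chromosome. Within 250 kb of the 8 listed genes, 40 other genes were listed and 36 tested, of which 6 rose and 25 fell, where 26.8% and 51.8% of all genes did. Some of these neighbours passed the filter on low values only through a single group, which fixed their direction. Quantile normalization gave 8 that rose and 17 that fell, and median ratio scaling 10 and 15, so that the smaller changes below depend on the scaling. All 5 tested neighbours of LIN28B fell, 4 protein-coding genes and the transcript AL357315.1, but the calls of PREP and AL357315.1 were lost with median ratio scaling, where PREP had 0.14. BVES, POPDC3 and AL357315.1 passed the filter only through the control libraries and so could only fall. HACE1 went from 7.44 to 2.50 FPKM, POPDC3 from 3.60 to 0.401 FPKM, PREP from 15.7 to 13.6 FPKM, and BVES, 13490 bases away, from 4.16 FPKM to a listed 0. The 5 tested neighbours of TRIM71 fell by less than the gene itself, with log2 fold changes of -0.28 for TMPPE to -0.84 for CNOT10, and TMPPE, GLB1 and DYNC1LI1 lost their calls with median ratio scaling. All 4 neighbours of HMGA2 rose, among them LLPH (3.00 to 5.70 FPKM) and TMBIM4 (3.10 to 5.56 FPKM). Of the others, AC107308.1 lies inside HMGA2 itself. LINC02454 (0.0808 to 2.64 FPKM) passed the filter only through the shSETD2 libraries and so could only rise. Beside IGF2BP2, ETV5 rose from 0.203 to 15.4 FPKM (3.77, limma adjusted p = 2.36e-08) while SENP2 and TRA2B fell (-0.61 and -0.74). ETV5 passed the filter only through the shSETD2 libraries and so could only rise. Of the 6 tested neighbours of IGF2BP1, 5 fell, and the largest change was -1.19 for ZNF652. PHOSPHO1, among these 5, passed the filter only through the control libraries and so could only fall. SNF8, also among them, lost its call with quantile normalization and with median ratio scaling, and PHOSPHO1 lost its call with quantile normalization. SOX2 had no other listed gene within this distance.

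Among all tested genes, the number of CTACCTC matches in the 3′ UTR went along with lower values in shSETD2. This reading was chosen after the values were seen and is a description with no test. A 3′ UTR could be assigned to 12259 tested genes, and 11.1% of them held at least 1 match. Of the 10897 genes with 0 matches, 50.8% fell and 28.7% rose, with a median log2 fold change of -0.25. Of 1193 genes with 1 match, 53.6% fell (median -0.34), and of 138 genes with 2 matches, 58.7% fell (median -0.40). Of the 31 genes with 3 or more, 21 fell and 6 rose (median -1.03), and without LIN28B, IGF2BP1, HMGA2 and TRIM71, 18 of 27 fell and 5 rose (median -0.99). Among the 27, IGDCC3, IGSF9B, ZBTB8B and NYNRIN passed the filter on low values only through the control libraries and so could only fall. Such genes were not counted in the other classes. The median of these 27 genes was -0.73 after quantile normalization and -0.70 with median ratio scaling, where genes with 0 matches had -0.11 and 0.04. The 3′ UTR length moved with the number of matches, from a median of 1191 bases with 0 matches to 6941 bases in the 27 genes, and its part in the difference was not tested.

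**Figure D5:**
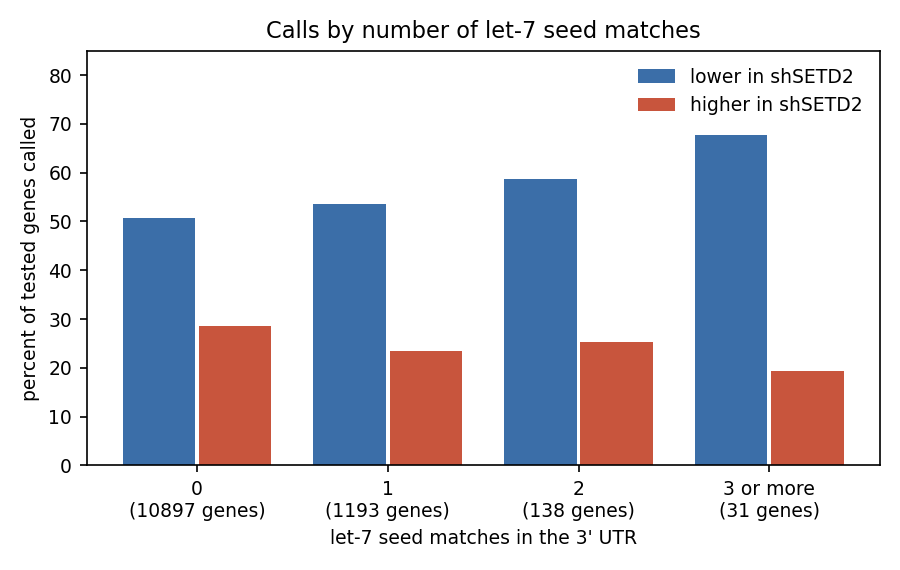
Percent of tested genes that fell (blue) and rose (red) in shSETD2 at a limma adjusted p under 0.05, by the number of CTACCTC matches in the 3′ UTR, with the number of genes under each pair of bars. The share that fell is 50.8% with 0 matches and 67.7% with 3 or more, a class of 31 genes that includes 4 of the oncofetal genes.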

How the data were processed

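RNA-seq reads were aligned by the authors with HISAT2 to hg19 (GRCh37), expression was estimated with Ballgown, and 1 FPKM value per gene and library was deposited. Tool versions, the gene annotation, the use of strand and the rule by which genes were listed are not given in the sources used here. A second deposited table holds the authors' own comparison and was not used. Low FPKM values did not fall on whole multiples of a step (at most 39.3% lay within 0.05 of one), so depth is unknown, no counting error is given, and the precision of a value is the spread over 3 libraries. FPKM summed to 218769 to 224603 per library.

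The 14068 genes whose mean FPKM was 0.5 or more were fitted on log2(FPKM + 1) in limma 3.58.1 by lmFit and trended eBayes (R 4.3.3), 3 control against 3 shSETD2 libraries, Benjamini-Hochberg adjusted, threshold 0.05. The members and lists were chosen with earlier results of these data known. Named genes were all members, the 3 largest called changes of each list and its best-known genes, and the neighbours within 250 kb. IGF1R, INSR, IRS2, HRAS, CDC25A, HIC2, DROSHA and DNMT3B were added after their values were seen. Some genes that this rule covers are left out of the text. The let-7 host genes were taken by position in GENCODE v44lift37 in place of a list of 8 symbols, because LINC01465, listed there for let-7i, does not contain it. Same-numbered libraries did not deviate together (r of -0.02 to 0.02 across genes). The 16 alternatives were pseudocounts of 0.1 and 0.01, no filter or a mean of at least 5 FPKM, scaling by quantiles, upper quartiles or median ratios, no trend, an ordinary linear model, the replicate number as a block, and each library left out. Scalings for the neighbours and for classes of seed matches were added after seeing the data. Figures were made with Python 3.11.15, pandas 2.3.3, numpy 2.4.6 and matplotlib 3.10.9.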

Additional observations from a re-analysis of the deposited data

How the results depend on the processing

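LIN28B, IGF2BP1, HMGA2, SOX2 and TRIM71 kept their direction and their side of the threshold under every alternative that tested them, which for SOX2 and TRIM71 left out only the filter at a mean of 5 FPKM. The number of members that rose was 2 and became 1 after quantile normalization, where IGF2BP2 lost its call (0.09, limma adjusted p = 0.0818). The number that fell was 4 and became 2 with a mean of at least 5 FPKM, since SOX2 and TRIM71 were then not tested. The number of all genes called was 11057, became 5647 of 7078 tested with that filter because fewer genes were tested, and was 10491 to 10921 without 1 library. IGF2BP3 changed sign with median ratio scaling (0.037, limma adjusted p = 0.778), and the cause was not tested. It ranged from -0.40 to -0.21 without 1 library. With the replicate number as a block, 10976 genes were called, SETD2 passed (-0.58, limma adjusted p = 0.0156) and no member changed its call, but the numbers do not pair the libraries. SETD2 also passed without control library 2 (-0.83, limma adjusted p = 6.48e-03) or shSETD2 library 3 (-0.73, limma adjusted p = 0.0418). It did not pass without any 1 of the other 4 libraries (-0.45 to -0.53, limma adjusted p = 0.149 to 0.179), and median ratio scaling brought it to -0.25 (limma adjusted p = 0.377). The values of single members, SETD2 and lists under the alternatives were also tallied, including those named above. Of these, 302 kept their sign and side of the threshold or, for counts, stayed within 1.5 times, though sizes could differ. In the rest, 10 counts moved by over 1.5 times, 4 passed only under the alternative, 1 lost its call and 1 reversed its sign. Depth is unknown, so the lowest level that a listed 0 allows cannot be given.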

Other observations

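Relatives of the oncofetal genes moved in both directions. Of 16 genes from the families of the members, 11 were listed and tested, of which 2 rose, 5 fell and 4 did not pass. Among all tested genes 26.8% rose and 51.8% fell, 78.6% together, and a difference from these shares was not tested. The median log2 fold change was -0.51 beside -0.29 for all genes. Quantile normalization gave 2 that rose and 6 that fell, and median ratio scaling gave 4 in each direction. SALL1, SALL3 and SOX21 passed the filter only through the control libraries and so could only fall. SALL1 had a mean of 7.64 ± 0.488 FPKM (SD, n = 3) in control and SALL3 had 1.91 ± 0.117 FPKM, and both were listed at 0 in all shSETD2 libraries, while SALL2 fell from 11.7 ± 0.202 to 0.757 ± 0.0734 FPKM (-2.86, SE 0.055, limma adjusted p = 7.72e-08). SOX21 went from 1.60 ± 0.313 FPKM to a listed 0. TRIM32 had means of 5.19 ± 3.05 and 2.43 ± 0.0717 FPKM (limma adjusted p = 0.177) and passed without control library 1 (-1.22, limma adjusted p = 2.53e-05).

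Of 12 other oncofetal genes, 9 were listed and 5 tested, of which 2 rose, 2 fell and 1 did not pass, with a median log2 fold change of -0.05. Among all tested genes 26.8% rose and 51.8% fell. GPC3 and PLAC1 passed the filter on low values only through the control libraries and so could only fall. PEG10 passed it only through the shSETD2 libraries and so could only rise. The heparan sulfate proteoglycan GPC3 had 12.6 ± 1.84 FPKM (SD, n = 3) in control and was listed at 0 in all shSETD2 libraries. The imprinted gene PEG10 rose from 0.106 ± 0.0330 to 5.22 ± 0.295 FPKM (2.49, SE 0.061, limma adjusted p = 2.00e-07), and the placental gene PLAC1 fell from 2.59 ± 0.0475 to 0.273 ± 0.0149 FPKM (-1.49, SE 0.051, limma adjusted p = 7.62e-07).

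The genes whose 6 values lay closest to those of 3 members were found among 13616 protein-coding genes by the root mean square difference of log2(FPKM + 1). For LIN28B these were NRN1 (0.0844), HOXD13 (0.146) and NEFL (0.178), all listed at 0 in shSETD2. For IGF2BP1 they were SEPHS2 (0.0941), MRPS21 (0.103) and HES4 (0.217), and for HMGA2 they were SPRED2 (0.0654), MBD2 (0.112) and UGDH (0.115). LINC01465 had 0.0686 ± 0.00526 FPKM in control and 1.20 ± 0.279 FPKM in shSETD2 (SD, n = 3 each, 1.03, limma adjusted p = 8.27e-05). This transcript, which does not contain let-7i, passed the filter on low values only through the shSETD2 libraries, which fixed its direction.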
